A study of Drosophila melanogaster with 2 samples.

Results

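The 26S proteasome genes of Drosophila melanogaster were taken as the protein-coding genes whose symbol begins with Prosalpha or Prosbeta, or is Rpn or Rpt followed by a number. This gave 48 of the 13968 protein-coding genes on the chromosome arms. Of these, 25 encode the core particle and 23 the regulatory particle. A letter R or T after the subunit number marks 16 of them as paralogues, several of which are known from the testis, and 32 carry no such letter. The series mapped the genomic positions of the zinc-finger protein CG14667, fused to eGFP, by chromatin immunoprecipitation with an anti-GFP antibody. There is 1 group, whole embryos of the transgenic CG14667-GFP strain collected from 0 to 24 h, with 2 biological replicates and no untagged or mutant group. Whole embryos mix all tissues and stages, so a peak belongs to no named cell type.

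The proteasome degrades proteins that carry ubiquitin chains. Its core particle is a barrel of alpha rings, which gate the entrance, around beta rings, some of whose subunits cut peptide bonds. The regulatory particle caps the barrel, with a base of Rpt ATPases that unfold substrates and Rpn subunits that receive ubiquitin, and a lid that removes the ubiquitin chain. The subunits are needed in every cell, and in the fly testis several are replaced by paralogues.

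A gene was called bound when the summit of a peak in the authors' conservative list, which was made from both replicates, lay within 500 bp of one of its annotated starts. The conservative list held 3083 peaks on the dm6 genome. Replicate 1's own thresholded list held 2699 peaks and replicate 2's held 2146. The files give no read counts, so depth is unknown. Each peak's signal is the value of the authors' peak caller against a control, on a scale the sources used here do not give, and it is used below only to describe and rank peaks.

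CG14667-GFP summits lay at the starts of 8 of the 48 proteasome genes (16.7%, 95% Wilson interval 8.70 to 29.6%), against 12.6% of all protein-coding genes. The interval includes that background. The bound genes were Prosalpha3, Prosalpha6, Prosbeta2 and Prosbeta5R2 of the core particle and Rpn3, Rpn5, Rpn6 and Rpn13 of the regulatory particle. Their peaks were of middling strength. The largest peak at each of the 8 genes had a median signal of 116 (range 49.6 to 213), where the 1304 conservative peaks within 500 bp of any protein-coding start had a median of 133 and a maximum of 2115.

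**Figure D1:**
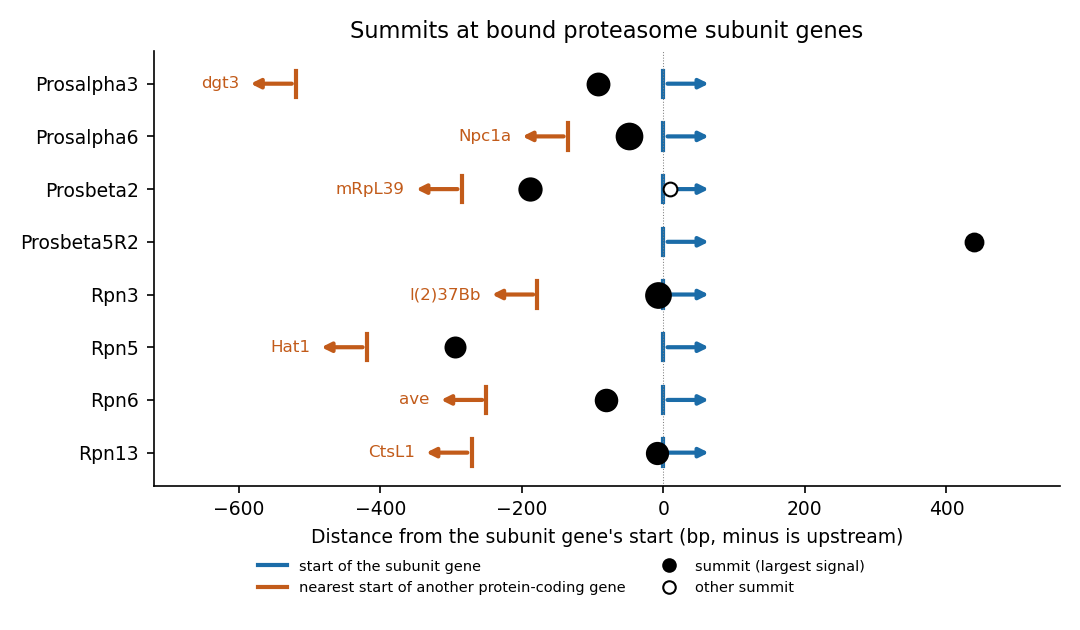
Summits of conservative peaks (circles, larger for a larger signal) at the 8 bound proteasome genes, against the distance in bp from the subunit gene's start, with the nearest start of another protein-coding gene in orange and arrows along transcription. At 7 genes the main summit lies 8 to 294 bp upstream of a start of the subunit gene. There it lies between that start and the drawn start of a gene read the other way. At Rpn6 the start drawn is 1 of 2, and the summit lies inside the gene. At Prosbeta5R2 the summit lies 439 bp downstream.

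The sequence under the summits is shown for the members that carry the contrast below, namely an alpha-ring gene, a beta-ring gene with a pair of peaks, a lid gene and the bound paralogue. Each run is dm6, on the plus strand, which is also the strand of all of these genes, with the summit at base 106 of 211. Capitals mark the DRE (TATCGATA, the site of the factor DREF) and its inner word CGATA, the core of the BEAF-32 site, on either strand. The start of Prosalpha6 is base 155 of its run, that of Rpn3 base 114, and that of Prosbeta2 base 96 of the run at its start. The runs are Prosalpha6 at chr2L:10221197-10221407, Prosbeta2 upstream at chr3L:14999657-14999867, Prosbeta2 at the start at chr3L:14999856-15000066, Rpn3 at chr2L:19051677-19051887 and Prosbeta5R2 at chr2L:17990752-17990962.
Prosalpha6: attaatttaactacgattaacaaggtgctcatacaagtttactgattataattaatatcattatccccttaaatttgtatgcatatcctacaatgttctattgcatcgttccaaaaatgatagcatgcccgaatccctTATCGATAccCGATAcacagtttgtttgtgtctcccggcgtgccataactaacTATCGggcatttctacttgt
Prosbeta2, upstream peak: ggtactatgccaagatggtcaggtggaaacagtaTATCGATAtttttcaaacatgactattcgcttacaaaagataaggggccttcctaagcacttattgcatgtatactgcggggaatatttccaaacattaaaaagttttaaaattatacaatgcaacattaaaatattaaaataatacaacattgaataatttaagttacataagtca
Prosbeta2, peak at the start: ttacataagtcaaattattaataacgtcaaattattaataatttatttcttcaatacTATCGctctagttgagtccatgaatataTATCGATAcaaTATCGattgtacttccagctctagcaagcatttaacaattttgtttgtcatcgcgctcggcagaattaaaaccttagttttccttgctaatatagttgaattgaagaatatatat
Rpn3: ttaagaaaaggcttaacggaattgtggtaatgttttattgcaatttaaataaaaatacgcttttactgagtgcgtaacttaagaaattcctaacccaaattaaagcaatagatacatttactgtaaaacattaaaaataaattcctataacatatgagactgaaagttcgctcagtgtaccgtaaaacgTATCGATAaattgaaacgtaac
Prosbeta5R2: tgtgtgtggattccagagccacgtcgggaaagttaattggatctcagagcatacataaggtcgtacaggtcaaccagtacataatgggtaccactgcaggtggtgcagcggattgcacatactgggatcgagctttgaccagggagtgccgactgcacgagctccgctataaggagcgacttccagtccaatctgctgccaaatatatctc

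Among the alpha-ring genes without a suffix, 2 of 7 were bound. Prosalpha6 (FBgn0250843) had the largest signal of all members. Its peak at chr2L:10221249-10221351 ranked 615 in the conservative list with a pooled signal of 213, and its intergenic summit lay 49 bp upstream of the gene's start. The signal was 169 in replicate 1 and 40 in replicate 2. Across 2966 conservative peaks with a candidate in both replicates, the log2 ratio of replicate 1 to replicate 2 had a median of 0.22 and an SD of 0.44. At Prosalpha6 it was 2.08, and 1 of the 2966 peaks, Prosalpha6 itself, reached that value. This comparison was made after the value was seen. The Prosalpha6 peak was also narrow, at 103 bp, where the other peaks at members were 336 bp wide, and 77 of the 3083 conservative peaks (2.5%) were no wider.

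Prosalpha3 (FBgn0261394) had its peak on chromosome arm 2R at 20994640 to 20994975. The pooled signal was 119, with 73.9 in replicate 1 and 46.8 in replicate 2. Its intergenic summit lay 92 bp upstream. Both replicates' thresholded lists held peaks at Prosalpha3 and Prosalpha6, and replicate 1 was the higher at both.

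Of the beta-ring genes without a suffix, 1 of 7 was bound. This was Prosbeta2 (FBgn0023174), which encodes the trypsin-like active subunit. It had a pair of overlapping conservative peaks. The upstream one, at chr3L:14999594-14999929, had a pooled signal of 128, with 58.0 in replicate 1 and 56.0 in replicate 2, the closest values of the replicates at any bound member. Its summit lay 189 bp upstream of Prosbeta2 and 96 bp upstream of mRpL39, a gene for a mitochondrial ribosomal protein. The other, at chr3L:14999793-15000128, had its summit in the 5' UTR, 10 bp downstream of the start, with a pooled signal of 10.2. No replicate peak had a summit within 100 bp of this one, the nearest being 198 bp away in replicate 1 and 206 bp away in replicate 2. Weak peaks of this kind usually overlapped another peak. Of 85 conservative peaks on the arms with a signal under 40, 81 did so. Within 500 bp Prosbeta2 was bound with or without its weak peak. The upstream peak ends short of the Prosbeta2 start and its summit is nearer to mRpL39, so the calls by the nearest start or by a peak that covers the start rest on the weak peak.

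The lid held 3 bound genes of 8 without a suffix, and the base 1 of 10. Rpn3 (FBgn0261396), a lid scaffold subunit, had the second largest signal among members. Its peak at chr2L:19051614-19051949 had a pooled signal of 187, with 108 in replicate 1 and 79.1 in replicate 2, and an intergenic summit 8 bp upstream of the start. Rpn6 (FBgn0028689), another scaffold subunit of the lid, had its peak on 2R at 14752184 to 14752519. The pooled signal was 112, with 53.8 in replicate 1 and 61.2 in replicate 2. The summit lay 81 bp upstream of 1 of the 2 annotated Rpn6 starts, in an intron of the longer transcripts. Both genes had a peak in each replicate's thresholded list.

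Rpn5 (FBgn0028690), also of the lid, was the weakest bound gene without a suffix. Its peak at chr3R:5789031-5789366 had a pooled signal of 83.3, with 32.6 in replicate 1 and 46.0 in replicate 2. Replicate 1's value came from a candidate with a global IDR (irreproducible discovery rate, the expected share of irreproducible peaks at that rank or above) of 0.113, which was not in its thresholded list. The summit was 294 bp upstream of Rpn5 and lay in an intron of Hat1, a histone acetyltransferase gene, 125 bp upstream of the nearest Hat1 start.

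Rpn13 (FBgn0033886), a ubiquitin receptor of the base, had its peak on 2R at 13960245 to 13960580. The pooled signal was 106, with 65.9 in replicate 1 and 44.2 in replicate 2, and the summit lay 9 bp upstream of the start. None of the 6 Rpt genes without a suffix, which encode the ATPases, was bound (95% Wilson upper limit 39.0%). That interval includes the 12.6% of all protein-coding genes.

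**Figure D2:**
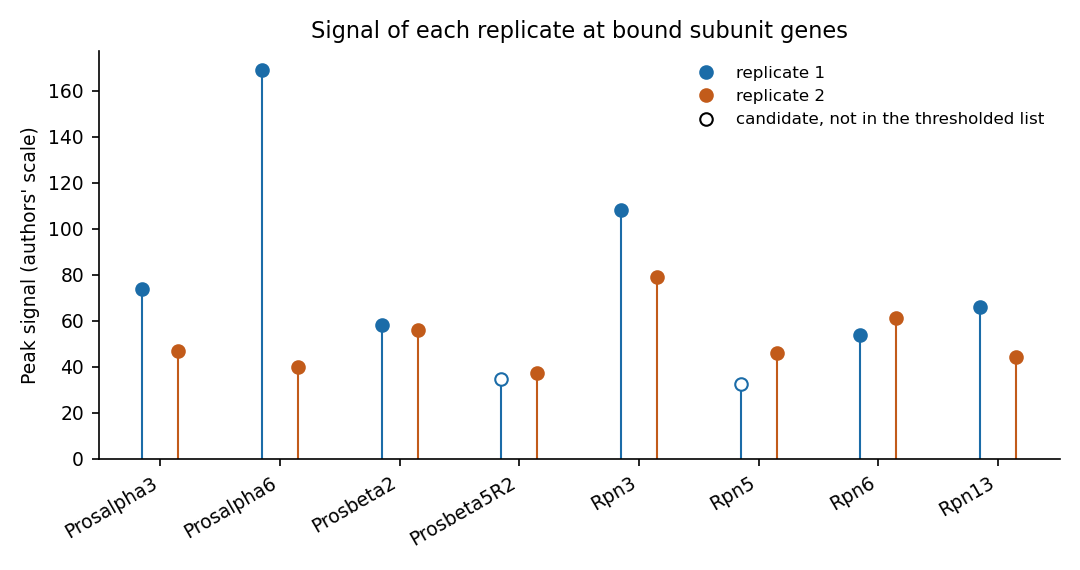
Peak signal in replicate 1 and replicate 2 at the main peak of each of the 8 bound genes, on the authors' scale, with open circles for candidates that were not in that replicate's thresholded list. Prosalpha6 stands apart with 169 in replicate 1 and 40 in replicate 2, and the other 7 genes lie between 32.6 and 108 in both replicates. At Prosbeta5R2 the replicate 1 candidate has its summit 171 bp from that of the main peak.

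The replicates' own lists named nearly the same genes. Replicate 1's list had a summit at the starts of 6 of the 48 genes (12.5%), against 11.4% of all protein-coding genes. Replicate 2's list had one at 8 of 48 (16.7%), against 9.62%. All 6 genes of replicate 1 were among the 8 of replicate 2, and the 2 genes missing from replicate 1's list were Rpn5 and Prosbeta5R2. These are also the bound members whose global IDR was nearest to the authors' limit, at 0.00431 and 0.00447. The other thresholded list of the series also gave 8 of 48 (16.7%), against 13.6%, with Prosalpha4 gained and Prosbeta5R2 lost.

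The core and regulatory particles had much the same share of bound genes. It was 4 of 25 for the core particle (16.0%, 95% Wilson interval 6.4 to 34.7%) and 4 of 23 for the regulatory particle (17.4%, 6.98 to 37.1%). Without the R and T paralogues it was 3 of 14 (21.4%, 7.57 to 47.6%) and 4 of 18 (22.2%, 9.0 to 45.2%). Within the regulatory particle, the lid stood at 37.5% (13.7 to 69.4%) and the base at 10% (1.79 to 40.4%), with overlapping intervals. The lid count rests in part on Rpn5. In the settings that lost Rpn5 it was 2 of 8 (25%, 7.15 to 59.1%). This interval takes in the share of all protein-coding genes by replicate 1 alone (11.4%) and within 250 bp (9.74%). It also takes in that share with the nearest start only (9.03%) and with a global IDR of 0.001 or less (8.33%). Where the peak had to cover a start, the share (5.93%) lay below the interval. With Rpn5 kept, the lid interval (13.7 to 69.4%) took in the share within 1000 bp (14.9%). It lay above the share in replicate 2's list (9.62%), in the other thresholded list (13.6%) and with starts of coding transcripts only (12.6%). No test was run between these groups, and the intervals cover counting error only.

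**Figure D3:**
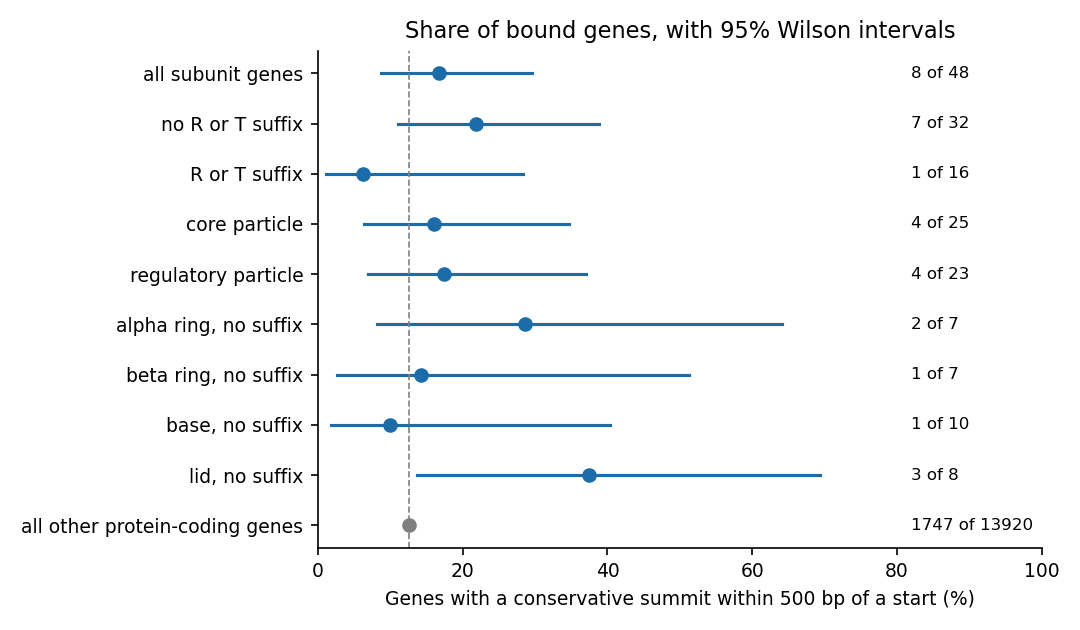
Share of genes with a conservative summit within 500 bp of a start, in percent, for proteasome genes by group (blue) and for all other protein-coding genes (grey, with its share as the dashed line), with 95% Wilson intervals and counts. Of the 9 proteasome intervals, that for the lid genes without a suffix (13.7 to 69.4%) lies wholly above the dashed line, and without Rpn5 it would reach down to 7.15%.

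The paralogues were rarely bound. Of the 16 genes with an R or T suffix 1 was bound (6.25%, 95% Wilson interval 1.11 to 28.3%), against 7 of the 32 genes without one (21.9%, 11.0 to 38.8%). These intervals overlap, and that of the paralogues includes the background of 12.6%. None of the 5 paralogues of the regulatory particle and none of the 5 alpha-ring paralogues was bound. Expression was not measured here. Neighbouring starts and DRE words, which differed between these groups as given below, were not tested for their part in this.

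The single bound paralogue differed from the other bound members in position and GC content, had no partner start nearby and had the lowest signal. Prosbeta5R2 (FBgn0051742), a paralogue of the chymotrypsin-like beta subunit gene, had its peak at chr2L:17990689-17991024. It had a pooled signal of 49.6 and ranked 2986 of 3083. The signal was 37.5 in replicate 2. In replicate 1 a candidate outside the thresholded list overlapped the pooled peak, with a signal of 34.8 and a global IDR of 0.18. That candidate's summit lay 171 bp from the pooled summit, and replicate 1 had no candidate summit of any rank within 500 bp of the start. The pooled summit lay inside the coding exon, 439 bp downstream of the start. Of the 1304 conservative peaks near a protein-coding start, 10 (0.767%) had their summit in coding sequence. The GC content within 50 bp of the summit was 54.5%, against 26.7 to 38.6% at the 8 other peaks of members, and 3.68% of the 1304 peaks reached it. The call was lost in 5 of 9 alternative settings.

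All 7 bound genes without a suffix start close to a gene read the other way. A gene was counted as head-to-head when a protein-coding start on the opposite strand lay up to 1000 bp upstream of one of its own starts. Among proteasome genes without a suffix 22 of 32 were head-to-head (68.8%), among the paralogues 4 of 16 (25%), and among all other protein-coding genes 36.1%. Of the 22 head-to-head genes without a suffix 7 were bound (31.8%, 95% Wilson interval 16.4 to 52.7%), and of the 10 others 0 were (upper limit 27.8%). Over all other protein-coding genes, 1165 of 5026 head-to-head genes were bound (23.2%) and 582 of 8894 of the rest (6.54%). The share among head-to-head proteasome genes therefore has an interval that includes the share among other head-to-head genes. Of the lid genes without a suffix, Rpn3, Rpn5, Rpn6, Rpn7, Rpn8 and Rpn9 were head-to-head, and Rpn11 and Rpn12 were not. The lid interval (13.7 to 69.4%) includes the 23.2% of other head-to-head genes. The part of this arrangement in the lid share was not tested.

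The partners were dgt3 (an augmin subunit gene) at Prosalpha3, Npc1a (a cholesterol transport gene) at Prosalpha6, mRpL39 at Prosbeta2, l(2)37Bb at Rpn3, Hat1 at Rpn5, ave (a signalling adaptor gene) at Rpn6 and CtsL1 (a cathepsin protease gene) at Rpn13. The facing starts were 519 bp apart at Prosalpha3, 135 bp at Prosalpha6, 285 bp at Prosbeta2, 178 bp at Rpn3, 109 bp at Rpn5, 250 bp at Rpn6 and 271 bp at Rpn13. At Rpn5 the summit lies beyond this Hat1 start, between it and a second Hat1 start farther out. The subunit gene's start was the nearer one to the main summit at Prosalpha3, Prosalpha6, Rpn3, Rpn6 and Rpn13, and the partner's start at Prosbeta2 and Rpn5. The chromatin was sheared to fragments of 200 to 800 bp, so a peak between such starts cannot be given to either gene of the pair.

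**Figure D4:**
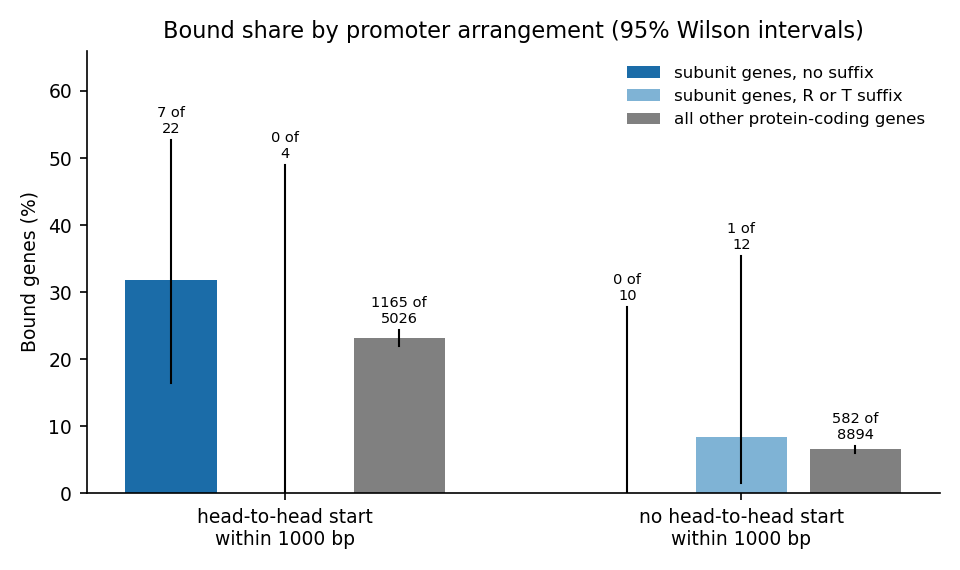
Share of bound genes in percent, with 95% Wilson intervals and counts, for genes with and without a head-to-head protein-coding start within 1000 bp, in proteasome genes without a suffix, proteasome genes with an R or T suffix, and all other protein-coding genes. Bound proteasome genes without a suffix are all in the head-to-head class, 7 of 22.

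The remaining 40 genes had no conservative summit within 500 bp of a start. The step at the limit was wide, with Prosbeta5R2 the farthest inside at 439 bp and Prosbeta6, a beta-ring gene, the nearest outside at 1113 bp. In the core particle, Prosalpha4 (2665 bp), Prosalpha2 (2689 bp), Prosalpha1 (3323 bp), Prosbeta5 (3501 bp), the chymotrypsin-like subunit gene, and Prosbeta7 (3522 bp) followed. Prosbeta1, the caspase-like subunit gene, was 7048 bp from a summit, Prosalpha5 8229 bp, Prosbeta4 11258 bp, Prosbeta3 25771 bp and Prosalpha7 88161 bp.

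In the regulatory particle the ATPase genes spanned a wide range. Rpt2 was 2897 bp, Rpt6 3425 bp, Rpt5 5327 bp, Rpt3 16750 bp, Rpt4 23652 bp and Rpt1 81385 bp from the nearest conservative summit. Of the other base genes, Rpn2 was 5312 bp, Rpn1 13566 bp and Rpn10, another ubiquitin receptor gene, 20792 bp away. Of the lid genes, Rpn9 was 6040 bp, Rpn11, which encodes the deubiquitinase, 7199 bp, Rpn7 7244 bp, Rpn8 10733 bp and Rpn12 11452 bp away.

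The unbound paralogues lay farther from summits, apart from Prosbeta2R2 (3427 bp) and Prosalpha1R (6416 bp). Prosbeta5R1 (11628 bp), Rpt6R (12948 bp) and Rpt3R (15106 bp) came next. Rpn12R (30708 bp), Prosalpha4T2 (37085 bp), Rpn13R (37758 bp), Prosbeta2R1 (38719 bp) and Prosalpha6T (39885 bp) followed. Rpt4R (61020 bp), Prosalpha3T (61883 bp), Prosbeta4R2 (67870 bp), Prosbeta4R1 (70218 bp) and Prosalpha4T1 (72944 bp) were the farthest. The median distance, bound genes included, was 37422 bp for the 16 genes with a suffix and 5319.5 bp for the 32 without one, and 12156 bp for all other protein-coding genes. A summit lay within 5000 bp of 2 of the 16 (12.5%), 15 of the 32 (46.9%) and 29.8% of the other genes. These distances also follow how closely genes are packed around each member, and that was not adjusted for.

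**Figure D5:**
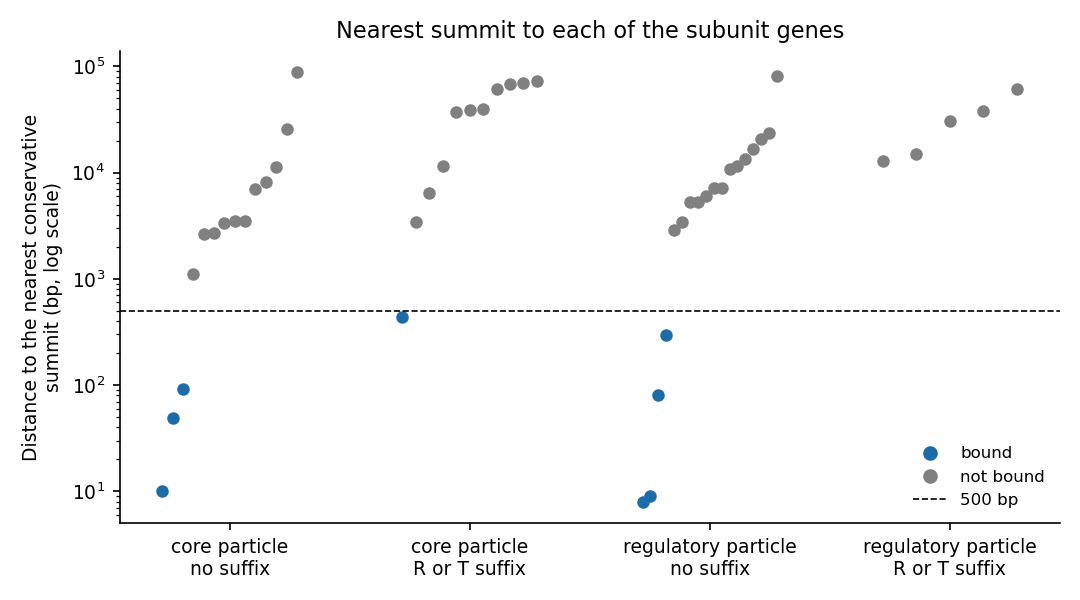
Distance in bp (log scale) from the nearest start of each of the 48 proteasome genes to the nearest conservative summit, by particle and suffix, with bound genes in blue, unbound genes in grey and the 500 bp limit dashed. Of the 16 paralogues 13 lie at 11628 bp or more, and no gene lies between 439 and 1113 bp.

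Candidates below the authors' threshold were common at these starts. A candidate of any rank in the ranked list of both replicates lay within 500 bp of 35 of the 48 genes (72.9%), against 65.9% of all protein-coding genes, so the presence of one says little. The strongest at an unbound member was at Prosalpha4, at -323 bp relative to the start, with a pooled signal of 66.4, 28.0 in replicate 1 and 36.6 in replicate 2. Its global IDR of 0.0105 was just above the limit of the conservative list, and the gene was bound in the other thresholded list. Rpn11 followed with a pooled signal of 57.2 (25.5 in replicate 1 and 23.7 in replicate 2, global IDR 0.056), and Rpt3 with 46.7 (17.7 in replicate 1 and 27.9 in replicate 2, global IDR 0.384). Over the 27 unbound members with a candidate the median signal was 21.3. That list had no candidate within 500 bp of 13 members. Of these, Prosalpha1, Prosalpha1R, Prosbeta4, Prosbeta6, Prosbeta7, Rpn1, Rpn10 and Rpt3R had none in either replicate's ranked list. The other 5 had one in a single replicate, namely Prosbeta2R2 (23.8), Rpt1 (18.2) and Rpn9 (10.4) in replicate 1 and Rpn2 (16.9) and Prosbeta1 (10.9) in replicate 2, given as signals.

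The DRE was frequent at the peaks of members. Within 50 bp of the summit it occurred at 3 of 9 peaks (33.3%), against 26 of the 1304 conservative peaks near a protein-coding start (1.99%). Within 150 bp it occurred at 5 of 9 (55.6%), against 8.74%. Of the 9 peaks 2 belong to Prosbeta2, and within 50 bp only the weak one at its start (pooled signal 10.2) held a DRE. The DRE centre lay 1 bp from the summit at Prosalpha3, 37 bp at Prosalpha6, 67 bp at the upstream peak of Prosbeta2, 16 bp at its peak near the start and 88 bp at Rpn3, as marked in the runs above for the last 3 genes.

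The same word is common in proteasome promoters whether bound or not. In the stretch from 250 bp upstream to 50 bp downstream of any start, 12 of the 32 genes without a suffix held a DRE (37.5%, 95% Wilson interval 22.9 to 54.7%), 1 of the 16 paralogues did (6.25%, Rpt3R), and 10.1% of all other protein-coding genes did. Of the 13 members with a DRE, 5 were bound (38.5%), namely Prosalpha3, Prosalpha6, Prosbeta2, Rpn3 and Rpn13, and 8 were not, namely Prosalpha5, Prosbeta1, Prosbeta6, Rpn7, Rpn9, Rpn12, Rpt5 and Rpt3R. At Rpn13 the DRE was in this stretch but not within 150 bp of the summit. Of the 35 members without a DRE, 3 were bound (8.57%). In other protein-coding genes the shares were 17.4% with a DRE and 12% without. A match of letters is not a measured site, and binding by DREF or BEAF-32 was not measured here.

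Other words were searched in the same stretch. CGATA, which the DRE contains, was in 28 of the 32 promoters without a suffix (87.5%, against 52.9% of other genes) and in 8 of the 16 paralogues (50%). TATAAA was in 14 of 32 (43.8%, against 51.3% of other genes), TAATTA in 4 (12.5%, against 24.3%) and CANCNCTA in 10 (31.2%, against 18.4%). The DRE was not the only word to differ with the calls. Over all 48 members, 4 of the 12 with CANCNCTA were bound (33.3%) and 11.1% of those without it. In other genes these shares were 23.0% and 10.2%. For CGATA the shares were 16.7% with and 16.7% without it in members, and 15.0% and 9.81% in other genes. The core of Motif 1 (GGTCACACT), a core promoter element, was in 6 of the 32 promoters without a suffix (18.8%, against 6.75% of other genes), at Prosalpha2, Prosalpha4, Prosbeta3, Rpn1, Rpn7 and Rpn8, none of them bound. In other genes 17.5% of promoters with this word were bound. The core of the antioxidant response element (TGANNNNGC), the site type of the stress factor Cnc, was in 37.5% of promoters without a suffix and 42.4% of those of other genes. GAGAG was in 3 of 32 (9.38%) without a suffix, in 6 of 16 paralogues (37.5%) and in 36.3% of other genes. Within 50 bp of the summits of members, TATAAA occurred at 3 of 9 peaks (33.3%, against 26.2%), TAATTA at 1 (11.1%, against 10.7%), CANCNCTA at 1 (11.1%, against 5.37%) and CGATA at 4 (44.4%, against 18.6%). GGTCACACT, TGANNNNGC and GAGAG occurred at none of the 9, against 0.460%, 8.82% and 6.52% of the 1304 peaks. At such shares, absence from 9 peaks says little. Within 150 bp TGANNNNGC and GAGAG each occurred at 1 of 9 (11.1%), against 31.5% and 32.4%.

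AT-rich DNA underlay most of these summits, as at other starts. Within 50 bp of the summit the GC content had a median of 32.7% over the 9 peaks (range 26.7 to 54.5%), against 30.7% over the 1304 peaks near a protein-coding start. Rpn3 and Rpn5 were lowest at 26.7%, followed by Rpn13 at 27.7%. The 10 words of 8 bases most in excess at conservative summits away from members were all made of A and T, each at 6.19 to 7.55% of summits. Of these, AAATTAAA occurred at Rpn3 and ATTTTAAA at Prosbeta2, and the other 8 at no peak of a member, all within 50 bp of the summit.

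Genes around the proteasome had a similar share of bound members. In a list of assembly factors, activators and partners 3 of 15 were bound (20.0%, 95% Wilson interval 7.05 to 45.2%), again around the background of 12.6%. Pomp (FBgn0032884), the assembly chaperone of the core particle, had a signal of 209 pooled, 129 in replicate 1 and 80.1 in replicate 2, 210 bp upstream of the start. The gene cnc (FBgn0262975), whose mammalian relative Nrf1 raises proteasome gene transcription, had 125 pooled, 73.2 in replicate 1 and 45.2 in replicate 2, 320 bp downstream of a start. PI31 (FBgn0033669), which encodes a proteasome-binding regulator, had 61.9 pooled, 32.4 in replicate 1 and 33.8 in replicate 2, and was in neither replicate's own list.

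Of the COP9 signalosome, a complex related to the lid, 1 of 9 genes was bound (11.1%). This was alien (FBgn0013746), with 198 pooled, 112 in replicate 1 and 109 in replicate 2, 154 bp upstream of the start. Among ubiquitin genes and genes of ubiquitin activation, transfer and the p97 segregase, 3 of 15 were bound (20.0%). Among them was ben (FBgn0000173), a ubiquitin-conjugating enzyme gene, with 216 pooled, 92.8 in replicate 1 and 124 in replicate 2. Plap (FBgn0024314), related to a p97 cofactor, had 88.3 pooled, 38.1 in replicate 1 and 42.8 in replicate 2, and was in neither replicate's own list.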

How the data were processed

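The data are peak lists from chromatin immunoprecipitation in 2 biological replicates. Per the file headers and listings deposited with the samples, the authors called peaks on dm6 alignments against a control and compared them by IDR; the sources used here name neither aligner nor caller. The authors deposited a signal, an IDR score, −log10 of a q-value and a summit offset for each peak, and the ranked lists add −log10 of the global IDR. In the ranked list of the whole series, 8 columns of single-replicate values carry no sample name and were not used; replicate values came from each replicate's own lists, taking the candidate that overlapped the pooled peak by at least 1 bp with the nearest summit. Replicates come from separate biological samples per the labels.

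Summits were column 2 plus column 10 (1-based in the text). Starts came from Ensembl release 115, and sequence from the RefSeq release of the same assembly, whose arms contained every peak. Calls were tested on simulated starts. No test was run between gene groups, since 1 group was sampled; shares carry 95% Wilson intervals (scipy 1.17.1), which cover counting error only, and genes that share a peak are not independent. The members and lists were chosen with earlier results of these data known. The promoter words, words of 8 bases, replicate ratios and positions of the DRE were added after the data were seen. Every member is named; of the related lists, bound genes are named, except 1 that is not reported here. Of the symbols written for those lists 8, 1 and 3 were not found in the annotation and are left out.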

Additional observations from a re-analysis of the deposited data

How the results depend on the processing

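The count of bound proteasome genes stayed between 6 and 8 of 48 (12.5 to 16.7%) under 9 alternative settings. The share of all protein-coding genes moved from 5.93 to 14.9% over the same settings. Rpn5 and Prosbeta5R2 were lost within 250 bp, where the peak had to cover a start, with a global IDR of 0.001 or less and in replicate 1's own list, and Rpn5 alone with the nearest start only. The count of bound R and T paralogues was 0 in the first 4 of these settings and in the other thresholded list. Leaving out a replicate gave 0 to 1 bound paralogues. Bound genes of the related lists numbered 4 of 39 within 250 bp and 2 of 39 where the peak had to cover a start, against 7 of 39. The share of all protein-coding genes was 9.74% and 5.93% in those settings, against 12.6%. For proteasome genes, the share where the peak had to cover a start was 12.5%, against that 5.93%. It was 12.5% against 8.33% with a global IDR of 0.001 or less, and 12.5% against 9.74% within 250 bp. With the nearest start only it was 14.6% against 9.03%, and within 1000 bp 16.7% against 14.9%.

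Both settings added after the data were seen concern the peak list. Conservative peaks with a signal of 40 or more gave the same 8 genes. Candidates of any rank gave 35 of 48 proteasome genes, 18 core and 17 regulatory, 22 without and 13 with a suffix, 25 genes of the related lists and 65.9% of all protein-coding genes. The median GC content within 150 bp of the summit was 35.2%. No paired analysis was possible because the replicates form 1 group. Without read counts, the depth behind a signal is unknown.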
